A study of Homo sapiens with 5 samples.

Results

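The transcripts described here are those of 40 genes of the NF-kB pathway and of the secreted factors that senescent cells are known for, measured in RPE-1 cells after knock-down of FAM53C. They were found by gene symbol from a list of names, not by a threshold on the counts, and make up 40 of the 64252 gene rows in the table of counts. By role they are 9 NF-kB factors and close targets, 12 cytokines, 4 growth factors, 5 IGF-binding proteins (IGFBPs) and 10 extracellular proteases with their inhibitors. A count was present for 39 of them (HGF was at 0 in every library), and 37 passed the filter on low counts, which also removed EREG and MMP3.

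RPE-1 is an immortalized human retinal pigment epithelial line, and the study asked how its expression programs respond when FAM53C is depleted. Poly(A) RNA was sequenced from cultures of the same unmodified line. The siCtrl group (3 libraries) received the ON-TARGET Control #1 siRNA and the siFAM53C group (2 libraries) a pool of ON-TARGETplus siRNAs against FAM53C. Both groups were transfected with RNAiMAX at a stated 5 µM and collected 48 hr later, so all 5 libraries carry the transfection itself. The model is thus 1 cell line, with a control siRNA that differs from the pool in sequence as well as in target, and nothing in the labels says that libraries of a group came from separate cultures. The paper's methods describe duplicates and another RNA extraction kit than the labels do. All 3 deposited controls were used, and which of them the methods mean is not stated. P-values therefore measure the spread between these libraries, which may be technical.

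NF-kB is a family of dimers built from RELA, RELB, REL and the processed products of NFKB1 and NFKB2. Inhibitors such as NFKBIA hold the dimers in the cytoplasm until a receptor signal removes them, and the released dimers bind short kB motifs at genes for chemokines, cytokines, adhesion molecules and their own inhibitors. Many of the same secreted genes, together with IGFBPs and matrix proteases, form the secretory program of senescent cells, which stop dividing but remain alive.

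The libraries held from 19260124 to 25615415 counts on genes. The targeted gene, FAM53C, had 60.9, 59.7 and 57.6 CPM (counts scaled to a common TMM-adjusted library total, with TMM the trimmed mean of M-values) in siCtrl, against 14.2 and 22.3 CPM in siFAM53C, and its log2 fold change was -1.71 (SE 0.19, quasi-likelihood adjusted p = 0.003625 by edgeR, adjusted over 15341 genes by Benjamini and Hochberg's method). Of 12 markers listed for a retinal pigment epithelial line, 9 passed the filter on low counts. These were KRT8, KRT18, VIM, CDH2, MITF, OTX2 and PAX6, as well as BEST1 and PMEL. RPE65, the defining enzyme of mature pigment epithelium, was at 0 in every library, and RLBP1 and TYR were below 0.1 CPM. The summed level of 7 immune markers reached at most 1.15 CPM and that of 4 endothelial markers at most 1.23 CPM in any library. The first principal component of log2 CPM (39.8% of the variance) separated siCtrl replicate 3 and siFAM53C replicate 2 from siCtrl replicates 1 and 2, with the remaining siFAM53C library in the middle. The library names of siCtrl replicate 3 and siFAM53C replicate 2 both carry the number 3, and no label says what the number marks. This division is called the library split below. Differences between conditions are also given within it, first for siFAM53C replicate 1 (compared with the mean of siCtrl replicates 1 and 2). They are then given for siFAM53C replicate 2 (compared with siCtrl replicate 3). The split was drawn from these same counts, and siFAM53C replicate 1 was placed with siCtrl replicates 1 and 2 although it lay in the middle. Adjusted p-values from fits with a term for the split are therefore descriptive.

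Between conditions, 2 of the 37 members fell in siFAM53C and 0 rose. Those that fell were PLAUR, the cell surface receptor of urokinase, and PLAT, the tissue plasminogen activator. PLAUR fell by 43.2% and PLAT fell by 46.2%. The share of members called lower was 5.41%, where 3.47% of all genes tested were called lower and 0.489% higher. An unadjusted p under 0.05 was reached by 4 lower members (PLAUR, PLAT, AREG and CSF1) and by 0 higher ones, beside 10.5% and 6.61% of all genes. DESeq2 called 3 lower (PLAUR, PLAT and AREG, against 6.74% of all genes it tested) and 0 higher (against 1.93%). The median log2 fold change of the members was -0.040, with 19 below 0 and 18 above, beside 0.016 for all genes tested. In 20 members the log2 fold change was smaller than its standard error.

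**Figure D1:**
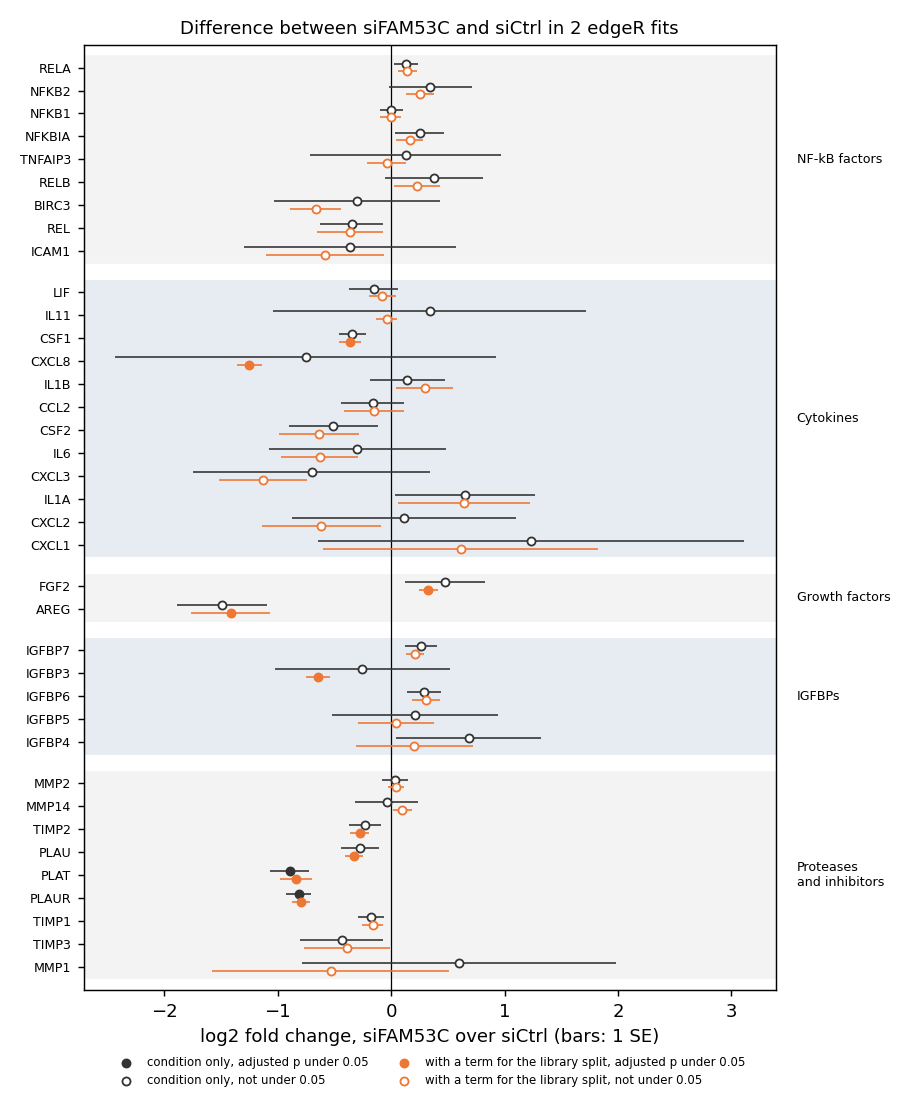
Log2 fold change of siFAM53C over siCtrl (x axis) for each of the 37 members tested, by role, from a fit on the condition only (black) and from a fit with a term for the library split (orange). Bars are 1 SE, and filled points passed the threshold of 0.05 on the edgeR adjusted p. In black only PLAUR and PLAT are filled, and the wide black bars of CXCL8, IL11 and CXCL1 shrink or shift when the split is in the fit.

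The main division among these genes lay between libraries of the same condition. Of the 37 members, 12 (32.4%) were higher by more than 1 on the log2 scale both in siCtrl replicate 3 than in the mean of siCtrl replicates 1 and 2, and in siFAM53C replicate 2 than in siFAM53C replicate 1. Over all genes tested this held for 2.65%, and the opposite, lower by more than 1 in both, held for 0.965% of genes and for 0 members. The 12 were 3 of 9 NF-kB targets and factors (TNFAIP3, BIRC3 and ICAM1), 6 of 12 cytokines (IL6, CXCL8, CXCL1, CXCL2, CXCL3 and IL11), 2 of 5 IGFBPs (IGFBP3 and IGFBP5) and 1 of 9 tested proteases and inhibitors (MMP1). CXCL1 (14 and 27 counts in siCtrl replicate 3 and siFAM53C replicate 2, 0 elsewhere) passed the filter on low counts only through these libraries. The same holds for MMP1 (15 and 28 counts there, at most 5 elsewhere). Their place among the 12 is thus not independent of the filter. As the split was seen in these same data, it was described and not tested, and its cause was not tested.

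**Figure D2:**
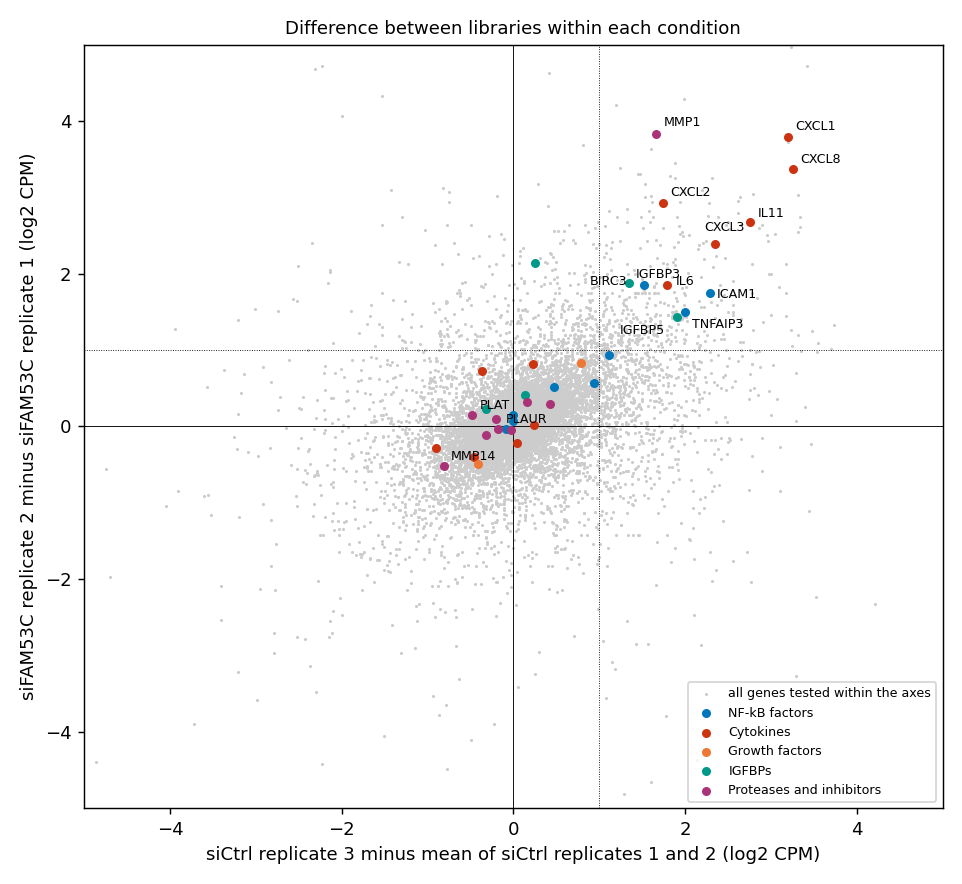
Difference in log2 CPM (prior count 2) between siCtrl replicate 3 and the mean of siCtrl replicates 1 and 2 (x axis) and between siFAM53C replicates 2 and 1 (y axis), for all genes tested (grey, 17 outside the axes) and for the members by role (colours). The 12 members right of and above the dotted lines at 1 are named, with CXCL8 and CXCL1 farthest to the right and MMP1 and CXCL1 highest, while PLAUR and PLAT lie near 0.

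None of the NF-kB subunits was called between conditions, and RELA and NFKB1 were close to level. RELA, the main transactivating subunit and the member of its group with the highest level per length, had RPKM values of 20.2, 17.5 and 17.7 in siCtrl and 20.5 and 20.0 in siFAM53C, and a log2 fold change of 0.13 (SE 0.11). NFKB1, precursor of p50, was at 50.9, 51.0 and 50.8 CPM in siCtrl and at 49.8 and 52.2 in siFAM53C, so its 5 libraries stayed within a narrow band on either side of the split. REL, the subunit best known from lymphocytes, had 4.63, 3.82 and 4.19 CPM in siCtrl and 3.14 and 3.48 in siFAM53C. Both siFAM53C libraries were below every control for REL, with a log2 fold change of -0.35 (SE 0.28, edgeR quasi-likelihood adjusted p = 0.6011); its exons overlap another gene of the same strand over 5702 bases, which makes the value uncertain.

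NFKB2 and RELB, which form the dimer of the non-canonical branch, followed the library split instead. NFKB2 was at 54.1, 40.5 and 89.8 CPM in siCtrl and at 62.9 and 93.2 in siFAM53C. RELB was at 4.80, 5.02 and 10.7 CPM in siCtrl and at 6.08 and 11.7 in siFAM53C. For both genes the 2 libraries with the number 3 were the highest of the 5 and the conditions overlapped, with log2 fold changes of 0.34 (SE 0.37) and 0.38 (SE 0.43). Within the split, NFKB2 differed between conditions by 0.43 and 0.05 and RELB by 0.30 and 0.12 on the log2 scale.

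NFKBIA and TNFAIP3 are both induced by NF-kB and shut it off, NFKBIA by holding the dimers and TNFAIP3 (A20) by editing ubiquitin chains upstream. NFKBIA was at 22.0, 25.1 and 32.7 CPM in siCtrl and at 26.0 and 37.3 in siFAM53C. TNFAIP3 was at 6.20, 5.81 and 24.3 CPM in siCtrl and at 6.84 and 19.5 in siFAM53C. The ratio across the split was thus 1.39 and 1.43 for NFKBIA and 4.04 and 2.85 for TNFAIP3, in siCtrl and siFAM53C respectively. BIRC3, an apoptosis inhibitor that takes part in TNF receptor signaling, was at 5.22, 4.45 and 14.0 CPM in siCtrl and at 2.72 and 10.1 in siFAM53C. ICAM1, a leukocyte adhesion molecule, had only 11, 11 and 55 counts in siCtrl and 11 and 38 in siFAM53C, and its exons overlap those of the other strand over 876 bases. Between conditions the log2 fold changes of these 4 genes ran from -0.36 (SE 0.94) to 0.25 (SE 0.22), none past the threshold.

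The proximal promoters of the genes that separated along the split were read for a kB motif, since members that moved together can be compared there. The sequences are from RefSeq on GRCh38.p14, 250 bases before to 50 after each annotated start, and 30 of the 40 members have an entry. The motif searched was GGNNNTTCC on either strand, where a palindromic match on both strands counts as 1 place and overlapping matches are listed separately. It was present in 14 of these 30 members (46.7%), in 8 of 11 members of the group higher across the split (72.7%, without MMP1, which has no entry) and in 6 of the 19 others (31.6%), beside 23.5% of all 27305 genes in the table. Of the 6 others with a match, NFKB2, NFKBIA and CSF2 were also higher across the split in both conditions, by less than 1. NFKB2, with 5 matches, differed by 0.94 in siCtrl and by 0.57 in siFAM53C. NFKB1, REL and IGFBP6 were not higher in siCtrl. The shares thus depend on the cut at 1. The list was drawn up around NF-kB and the group was taken from the split in these same data, so the shares describe these genes only and were not tested. CXCL1, CXCL2 and CXCL3 are among the 8, and their windows are near copies of one another. Each holds GGAATTTCC at 77 or 78 bases and GGGCTTTCC at 53 bases before the start, so they are not separate cases. CXCL1 was also in the group only through the filter on low counts. A match is not a binding site, and binding was not measured. For 6 of the 8 genes and for a pair of members that hold the motif and differed by less than 1 on the log2 scale across the split, the stretch around 1 match is printed 5′ to 3′ on the strand of the gene, with the match in capitals:
CXCL8, chr4:73740448-73740516, plus strand: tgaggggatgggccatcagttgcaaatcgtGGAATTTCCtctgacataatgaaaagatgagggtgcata
CXCL1, chr4:73869285-73869353, plus strand: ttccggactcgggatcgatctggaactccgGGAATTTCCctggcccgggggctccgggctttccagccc
IL6, chr7:22727098-22727166, plus strand: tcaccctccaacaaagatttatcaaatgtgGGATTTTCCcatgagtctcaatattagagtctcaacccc
ICAM1, chr19:10270904-10270972, plus strand: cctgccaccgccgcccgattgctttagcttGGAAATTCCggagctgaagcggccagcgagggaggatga
TNFAIP3, chr6:137867162-137867230, plus strand: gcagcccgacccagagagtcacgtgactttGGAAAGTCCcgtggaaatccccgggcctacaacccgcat
BIRC3, chr11:102317255-102317323, plus strand: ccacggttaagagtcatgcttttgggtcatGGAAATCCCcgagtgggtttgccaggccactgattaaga
NFKB1, chr4:102501281-102501349, plus strand: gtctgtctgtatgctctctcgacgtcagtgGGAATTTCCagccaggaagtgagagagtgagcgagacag
NFKBIA, chr14:35404792-35404860, minus strand: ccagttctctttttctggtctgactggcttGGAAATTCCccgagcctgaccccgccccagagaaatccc

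In these windows the match began 91 bases before the start in CXCL8, 72 in IL6, 186 in ICAM1 and 199 in BIRC3. NFKB1 holds the same 9 letters as CXCL8 at 48 bases, and its level did not follow the split. IL11, IGFBP3 and IGFBP5, which did follow it, have no match in their windows, and neither has PLAUR or AREG. These letters were searched in this window only, so nothing is said of kB motifs farther away.

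Of the cytokines, CXCL8 (interleukin 8), a neutrophil attractant, is on chromosome 4 of GRCh38 from 73740519 to 73743716. It had 307, 271 and 2503 counts in siCtrl and 144 and 1348 in siFAM53C, or 13.0, 14.2 and 131 CPM against 5.44 and 57.2. Across the split its level was 9.64-fold higher within siCtrl and 10.5-fold higher within siFAM53C, while within each side the siFAM53C library was the lower, by -1.31 and -1.20 on the log2 scale. With the condition alone the log2 fold change was -0.75 (SE 1.68, edgeR quasi-likelihood adjusted p = 0.8834), and with a term for the split it was -1.25 (SE 0.11, edgeR adjusted p = 1.058e-06). Without siCtrl replicate 3 the sign turned, to 1.21.

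CXCL1, CXCL2 and CXCL3, neutrophil attractants that share a receptor with CXCL8, were far lower and are close copies of one another, so reads may have been split between them and their single values are uncertain. CXCL1 had no count in siCtrl replicates 1 and 2 or in siFAM53C replicate 1, and 14 and 27 counts in the libraries with the number 3. CXCL2 had 26, 10 and 53 counts in siCtrl and 8 and 68 in siFAM53C. CXCL3 had 29, 17 and 109 counts in siCtrl and 12 and 65 in siFAM53C. All of them were highest in siCtrl replicate 3 and siFAM53C replicate 2, and none differed between conditions past the threshold. CCL2, a monocyte attractant and another classic NF-kB target, did not follow the split. Its CPM values were 4.37, 6.54 and 5.50 in siCtrl and 5.25 and 4.50 in siFAM53C, with a log2 fold change of -0.16 (SE 0.28).

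The cytokines that signal through gp130 differed from one another. IL6, the best known factor of the senescent secretory program, had 38, 27 and 104 counts in siCtrl and 25 and 86 in siFAM53C, or 1.61, 1.41 and 5.45 against 0.945 and 3.65 CPM. Its ratio across the split was 3.60 in siCtrl and 3.86 in siFAM53C, and within the split siFAM53C was lower by -0.63 and -0.57 on the log2 scale. Its exons overlap those of the other strand over 428 bases. IL11 was at 22.2, 20.8 and 146 CPM in siCtrl and at 21.5 and 138 in siFAM53C. Its values were nearly equal between conditions within the split (differences of 0.00 and -0.09) and 6.81-fold and 6.39-fold apart across it. LIF, which had the highest mean level per length of the cytokines in siCtrl, went the other way, with RPKM values of 44.3, 32.3 and 27.4 in siCtrl and 35.5 and 26.8 in siFAM53C. In siCtrl replicate 3 and siFAM53C replicate 2, IL11 was above LIF, at 54.6 and 51.4 RPKM.

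CSF1, the growth factor of macrophages, was at 55.9, 54.6 and 65.4 CPM in siCtrl and at 45.9 and 46.6 in siFAM53C. Both siFAM53C libraries were below every control, by a log2 fold change of -0.34 (SE 0.12, edgeR quasi-likelihood adjusted p = 0.2082), and with a term for the split it was called lower (-0.36, SE 0.10, edgeR adjusted p = 0.01655). CSF2 (GM-CSF) lay between 1.74 and 4.12 CPM, IL1A between 0.576 and 2.50 and IL1B between 3.46 and 6.69, with overlapping conditions in each. The interleukin 1 genes, which act at the head of the secretory program, thus had counts of 11 to 177 per library and log2 fold changes of 0.65 (SE 0.62) for IL1A and 0.14 (SE 0.33) for IL1B.

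**Figure D3:**
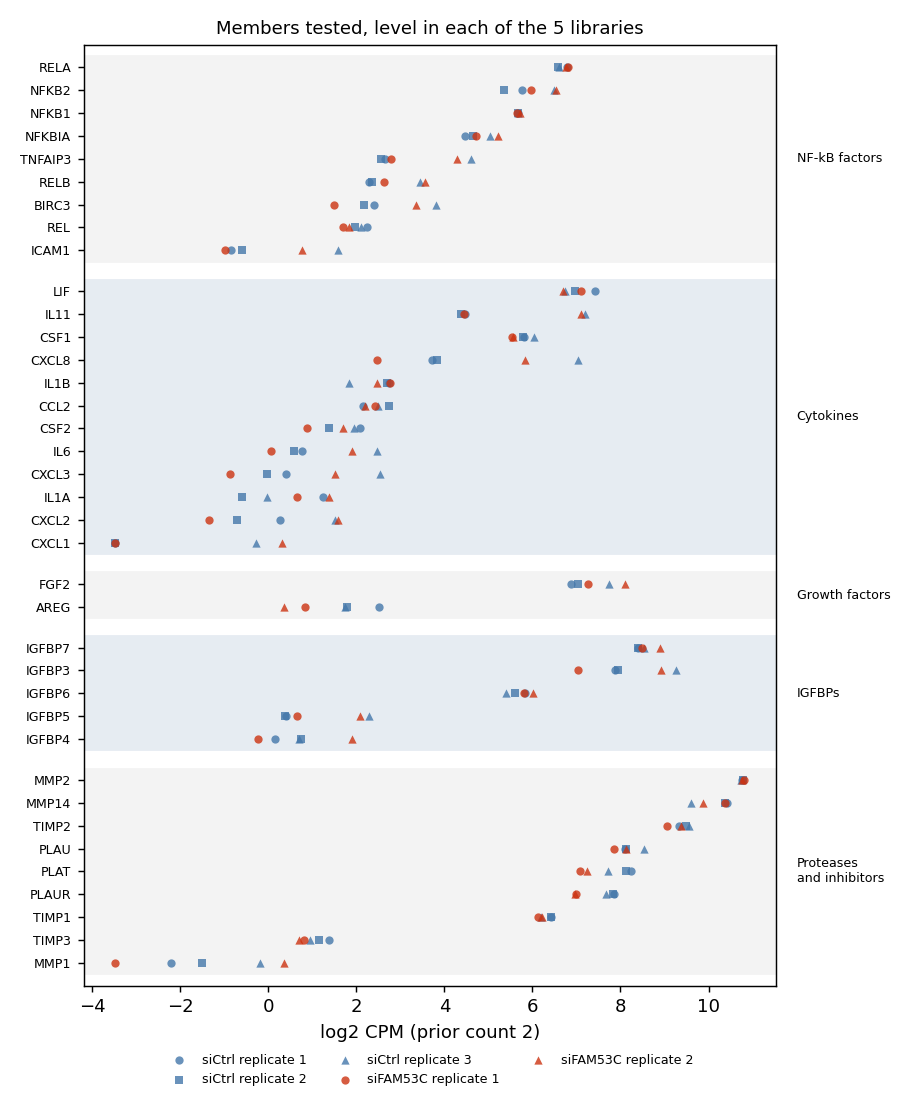
Level of each member tested in each of the 5 libraries (x axis, log2 CPM with a prior count of 2), grouped by role and ordered by mean level within a role; blue marks siCtrl, red siFAM53C, and the symbols mark the replicates. Triangles (siCtrl replicate 3 and siFAM53C replicate 2) stand to the right by more than 1 for 6 of the 12 cytokines and for TNFAIP3, BIRC3 and ICAM1. They stand to the left for LIF and IL1B. For PLAUR and PLAT red stands left of blue.

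Of the growth factors, AREG, a ligand of the EGF receptor, had the largest decrease of the list. It had 132, 64 and 62 counts in siCtrl and 45 and 28 in siFAM53C, or 5.60, 3.35 and 3.25 against 1.70 and 1.19 CPM. Both siFAM53C libraries were below every control, by -1.31 and -1.39 on the log2 scale within the split. The log2 fold change was -1.49 (SE 0.40, edgeR quasi-likelihood adjusted p = 0.09736), so AREG missed the threshold; it passed with DESeq2 (adjusted p = 0.01959), with a term for the split (adjusted p = 0.01065) and without siCtrl replicate 3 (adjusted p = 0.03636), as well as with no filter on low counts (adjusted p = 0.01712), and its adjusted p without any other library was from 0.2045 to 0.4445. AREG also missed the threshold with limma-voom (limma adjusted p = 0.1307). By edgeR it missed with RLE size factors (adjusted p = 0.09866), library totals alone (0.1157) and no robust step (0.1055). It passed with a replicate block by titles (edgeR adjusted p = 0.03602) or by library names (0.005804). EREG, a related EGF receptor ligand, had at most 5 counts in a library and was not tested.

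FGF2, a heparin-binding growth factor, was the highest of the growth factors per length, at 17.3, 19.3 and 31.5 RPKM in siCtrl and 22.7 and 40.3 in siFAM53C. Its level was 1.72-fold and 1.78-fold higher across the split. Its log2 fold change was 0.47 (SE 0.35, edgeR quasi-likelihood adjusted p = 0.5893) with the condition alone and 0.33 (SE 0.08, adjusted p = 0.009816) with a term for the split. In that fit it was the single member called higher, where 6.76% of all genes were. Its exons overlap those of the other strand over 804 bases, the locus being known for an antisense gene.

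IGFBPs bind insulin-like growth factors outside the cell, and several are secreted by senescent cells. IGFBP7 had the highest level per length of the 5, at 175, 174 and 191 RPKM in siCtrl and 186 and 247 in siFAM53C, with a log2 fold change of 0.26 (SE 0.14, edgeR quasi-likelihood adjusted p = 0.4058). IGFBP3, the main carrier of these growth factors in blood, was at 237, 245 and 613 CPM in siCtrl and at 131 and 481 in siFAM53C. It followed the split by 2.54-fold and 3.67-fold, and within the split siFAM53C was lower by -0.88 and -0.35 on the log2 scale. With a term for the split IGFBP3 was called lower (-0.65, SE 0.11, edgeR adjusted p = 0.001377), while the fit on the condition alone gave -0.26 (SE 0.77, adjusted p = 0.9165).

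IGFBP6, which prefers IGF2, was at 56.6, 48.8 and 42.2 CPM in siCtrl and at 55.5 and 64.9 in siFAM53C (log2 fold change 0.29, SE 0.15). IGFBP5 had 29, 23 and 92 counts in siCtrl and 39 and 97 in siFAM53C, higher across the split in both conditions and overlapping between them. IGFBP4 had 24, 30 and 29 counts in siCtrl and 20 and 86 in siFAM53C, so that its log2 fold change of 0.68 (SE 0.64) came from siFAM53C replicate 2 alone. Without that library it was -0.85.

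The 2 members called between conditions (5.41% of 37, beside 3.47% of all genes tested) both belong to the plasminogen activator system. Another member of that system, PLAU, was not called. PLAU (urokinase) and PLAT cut plasminogen into the protease plasmin, and PLAUR holds urokinase at the cell surface. PLAUR (ENSG00000011422, chromosome 19 of GRCh38, 43646095 to 43670547, minus strand) had 5477, 4374 and 3891 counts in siCtrl and 3364 and 2940 in siFAM53C. This is 222 ± 15.6 CPM (SD, n = 3; 232, 229 and 204) in siCtrl and 126 ± 1.68 CPM (SD, n = 2; 127 and 125) in siFAM53C. The groups did not overlap, and PLAUR fell by 0.82 on the log2 scale (SE 0.11, edgeR quasi-likelihood adjusted p = 0.007276), a 1.76-fold lower level. Within the split the differences were -0.86 and -0.71.

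PLAT (chromosome 8, 42174718 to 42207709, minus strand) had 7146, 5361 and 3994 counts in siCtrl and 3561 and 3530 in siFAM53C. This is 264 ± 49.1 CPM (SD, n = 3; 303, 281 and 209) in siCtrl and 142 ± 10.8 CPM (SD, n = 2; 135 and 150) in siFAM53C. The groups did not overlap, although siCtrl replicate 3 was well below the other controls. PLAT fell by 0.89 on the log2 scale (SE 0.17, edgeR quasi-likelihood adjusted p = 0.03118), with -1.12 and -0.48 within the split. With 1 library left out at a time, both were called only when it was siCtrl replicate 3. PLAUR was not called without siCtrl replicate 1 (adjusted p = 0.05062), siCtrl replicate 2 (0.05928), siFAM53C replicate 1 (0.08675) or siFAM53C replicate 2 (0.08095), nor was PLAT (0.115, 0.1461, 0.2242 and 0.1372), and the sign stayed the same in each of these fits. Neither gene has exons that overlap those of the other strand. In bulk RNA, fewer cells that make a transcript and less of it per cell cannot be told apart.

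**Figure D4:**
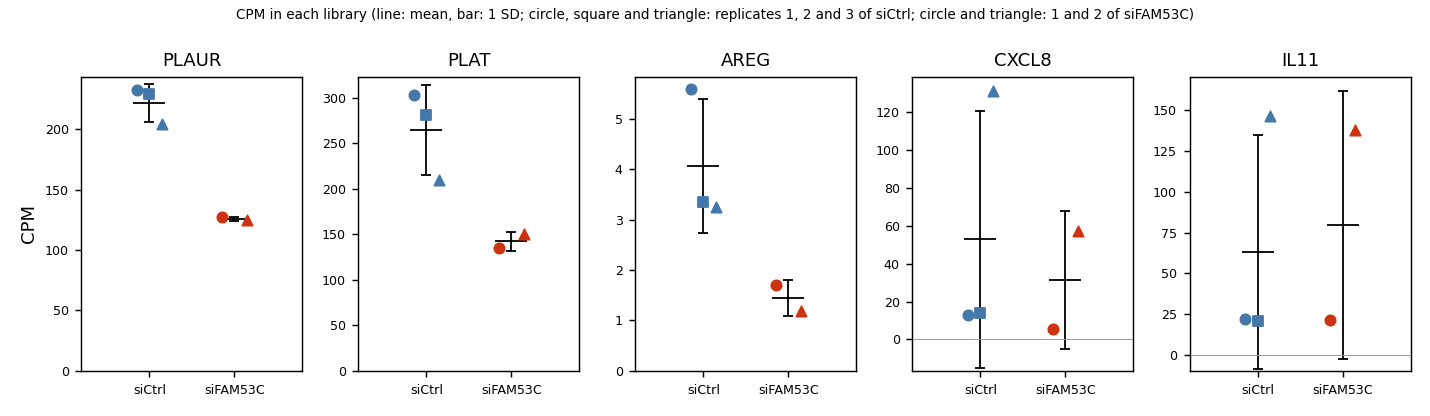
CPM of PLAUR, PLAT, AREG, CXCL8 and IL11 in each library (points; circle, square and triangle are replicates 1, 2 and 3 of siCtrl, circle and triangle replicates 1 and 2 of siFAM53C), with the mean (line) and 1 SD (bar, n = 3 and n = 2). For PLAUR, PLAT and AREG the siFAM53C points lie under every siCtrl point, whereas for CXCL8 and IL11 the triangles of both conditions lie far above the other points.

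The ligand of PLAUR differed less. PLAU was at 275, 279 and 373 CPM in siCtrl and at 229 and 280 in siFAM53C, with a log2 fold change of -0.28 (SE 0.17, edgeR quasi-likelihood adjusted p = 0.474) and of -0.33 (SE 0.08, adjusted p = 0.007547) with a term for the split. Its exons overlap those of the other strand over 915 bases. The tissue inhibitors of metalloproteases all had log2 fold changes below 0 that missed the threshold. TIMP2 was at 645, 715 and 758 CPM in siCtrl and at 534 and 667 in siFAM53C (log2 fold change -0.23, SE 0.14) and was called lower with a term for the split (-0.28, edgeR adjusted p = 0.02601). TIMP1 (-0.18, SE 0.11) and TIMP3 (-0.44, SE 0.36) were not called in either fit. Smaller overlaps with exons of the other strand concern IGFBP5 (487 bases), TIMP2 (367), IGFBP7 (354), MMP1 (223) and LIF (169). The same holds for BIRC3 (126 bases), RELA (103), TNFAIP3 (95) and MMP3 (32). For FAM53C, the targeted gene, the overlap is 704 bases.

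Of the metalloproteases, MMP2 had the highest level per length of all members in every library, and MMP1 and MMP3 were among the lowest. MMP2 (gelatinase A) had RPKM values of 367, 374 and 363 in siCtrl and 383 and 370 in siFAM53C, with a log2 fold change of 0.03 (SE 0.11). MMP14, the membrane protease that activates pro-MMP2, followed the split downward, with 1380, 1337 and 773 CPM in siCtrl and 1331 and 932 in siFAM53C. MMP1 (interstitial collagenase), in contrast, had 3, 5 and 15 counts in siCtrl and 0 and 28 in siFAM53C, and MMP3 (stromelysin) had 0, 0 and 2 counts in siCtrl and 0 and 4 in siFAM53C. The collagenase and the stromelysin were thus near the limit of detection at this depth, with their few counts mostly in the libraries of the number 3.

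The term for the library split was taken from these same counts, so the calls and standard errors of this fit are descriptive. With it, 8 of 37 members (21.6%) were lower, beside 10.7% of all genes. These were PLAUR (-0.79), PLAT (-0.84), AREG, CXCL8, IGFBP3, CSF1, PLAU and TIMP2, and the standard error was 0.11 in place of 1.68 for CXCL8 and 0.11 in place of 0.77 for IGFBP3. With siCtrl replicate 3 and siFAM53C replicate 2 both left out, which leaves 1 library in an arm that is assumed to vary like the controls, 5 were lower (PLAUR, PLAT, CXCL8, IGFBP3 and TIMP2, beside 7.97% of genes) and 0 higher (beside 3.65%). No siFAM53C library reached the lowest siCtrl library in 6 members (REL, CSF1, AREG, TIMP3, PLAUR and PLAT; 16.2%), beside 18.8% of all genes, and in 0 members did both exceed the highest siCtrl library, beside 16.7%.

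The other genes of the pathway were read from further lists. Of 35 tested receptors, adaptors and kinases upstream of NF-kB, 2 fell and 0 rose, both by edgeR and by DESeq2 (beside 3.47% and 0.489% of all genes by edgeR). On the unadjusted p, 4 were lower and 5 higher, beside 10.5% and 6.61% of all genes. IL1RAP, the accessory chain of the interleukin 1 receptor, went from 17.1 ± 1.05 CPM (SD, n = 3) to 6.64 ± 1.11 (SD, n = 2), which is a log2 change of -1.37 (SE 0.19, edgeR quasi-likelihood adjusted p = 0.009075), with -1.58 and -1.09 within the split. TNFRSF1B, the second receptor of TNF, went from 7.37 ± 1.02 CPM (SD, n = 3) to 2.43 ± 0.284 (SD, n = 2), which is a log2 change of -1.60 (SE 0.27, edgeR adjusted p = 0.02087), with -1.59 and -1.61 within the split. IL1RAP was not called without siCtrl replicate 1 (edgeR adjusted p = 0.06039) or siCtrl replicate 2 (0.06277). TNFRSF1B was likewise not called without siCtrl replicate 1 (edgeR adjusted p = 0.06612) or siCtrl replicate 2 (0.1074). Neither was called without siFAM53C replicate 1 (log2 changes of -1.21 for IL1RAP and -1.49 for TNFRSF1B), nor was TNFRSF1B without siFAM53C replicate 2 (-1.72). The largest increase was that of the adaptor MYD88 (0.56, SE 0.22, edgeR quasi-likelihood adjusted p = 0.2433). BIRC2, a close relative of BIRC3, was the single gene of this list higher by more than 1 across the split in both conditions (1.07 and 1.01).

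Of 17 tested feedback regulators and further targets of NF-kB, 0 were called in either direction by edgeR or by DESeq2. On the unadjusted p, 1 was lower and 2 were higher, beside 10.5% and 6.61% of all genes. The log2 fold changes ran from -0.53 (TNFAIP8) to 0.63 (ZC3H12A). NFKBIZ, a nuclear inhibitor family member, was the single one higher by more than 1 across the split (1.32 and 1.01). Of 24 tested secreted factors of senescent cells outside the members, 0 were called by edgeR, where the unadjusted p gave 4 lower and 1 higher (beside 10.5% and 6.61% of all genes) and DESeq2 called 2 lower and 1 higher (beside 6.74% and 1.93%). Their log2 fold changes ran from -0.94 (SE 0.37) for TGFB2 to 0.70 (SE 0.67) for CXCL16. VEGFA was lower across the split in both conditions (-1.43 and -1.66). Several genes of these lists, such as MIF, were listed at 0 in every library, which is a statement about the table and not about the cells.

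Among 16 tested receptors of the members, 1 was called lower and 0 higher by edgeR, beside 3.47% and 0.489% of all genes. LIFR, through which LIF signals, was the single one called. LIFR went from 30.5 ± 2.96 CPM (SD, n = 3) to 15.4 ± 0.321 (SD, n = 2), which is a log2 change of -0.98 (SE 0.15, edgeR quasi-likelihood adjusted p = 0.01224). It was not called without siCtrl replicate 2 (adjusted p = 0.07244), siFAM53C replicate 1 (0.1019) or siFAM53C replicate 2 (0.1006), and its exons overlap those of the other strand over 629 bases. Of 11 tested markers of the senescent state itself, 1 was called lower and 1 higher by edgeR, beside 3.47% and 0.489% of all genes. Their log2 fold changes had a median of 0.005, with 5 below 0 and 6 above. HMGB2, a chromatin protein known to decline in senescence, fell by 0.53 (SE 0.11, edgeR quasi-likelihood adjusted p = 0.04835). CDKN2B, a CDK4 and CDK6 inhibitor, rose by 1.01 (SE 0.18, edgeR adjusted p = 0.02289). Without any 1 library other than siCtrl replicate 3 neither was called, with an edgeR adjusted p from 0.1716 to 0.368 for HMGB2 and from 0.1115 to 0.1953 for CDKN2B. With all 5 libraries HMGB2 also missed the threshold with RLE size factors (edgeR adjusted p = 0.05041), with library totals alone (0.07353) and with no robust step (0.05658).

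The heptamer GACAAGA, chosen with earlier results of these counts known, was present in the longest annotated 3′ UTR of 6 of the 37 members (REL, RELB, BIRC3, LIF, IGFBP5 and MMP14; 16.2%), beside 15.1% of 12096 tested genes with such a UTR. None of these 6 was called lower in the fit on the condition or in the fit with a term for the split. PLAUR, PLAT and AREG do not hold it in theirs. Of the genes called in the further lists, TNFRSF1B holds it and IL1RAP, LIFR, HMGB2 and CDKN2B do not.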

How the data were processed

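The authors deposited raw counts per gene, not normalized or filtered. The submitters' processing notes name cutadapt 2.10, HISAT2 and featureCounts with hg38, and the methods align as reverse-stranded. Whether counting used the strand, and the annotation release, are not given in the sources used here, so overlaps with exons of the other strand are stated. Columns were matched to samples by name and groups taken from the titles. Symbols, positions and exon lengths are from GENCODE 44 on GRCh38 (56105 identifiers matched).

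The test was that of edgeR 4.0.16 under R 4.3.3 (filterByExpr with minimum count 10 and minimum total 15, TMM factors, condition only, quasi-likelihood test with a robust step that was chosen after both settings had been seen), adjusted over all genes by Benjamini and Hochberg's method at 0.05. CPM used TMM-scaled totals and RPKM exon length. The depth limits the precision of genes with few counts. Alternatives were DESeq2 1.42.0, limma-voom (limma 3.58.1), other size factors, no filter, replicate blocks, a term for the library split and each library left out. The tools were tested on simulated counts. Replicates differed by more than sampling noise (chi-square of at least 9.31 per gene).

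The members and lists were chosen with earlier results of these data known. By rule, values in every library were given for members called with the condition, the split or a block, the highest per length of each role, the NF-kB subunits, IL6, CXCL8 and CCL2, and further members were picked after their values were seen. SOD2 was not analysed here.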

Additional observations from a re-analysis of the deposited data

How the results depend on the processing

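FAM53C kept its direction and its call in every alternative with a test (-1.42 to -2.09 on the log2 scale), and PLAUR and PLAT stayed called with DESeq2, limma-voom, other size factors, no filter and no robust step. Lower genes numbered 533 and higher genes 75, and counts moved with the settings as follows. They were 888 and 254 with DESeq2, 961 and 375 with no filter, 1248 and 572 without siCtrl replicate 3 and siFAM53C replicate 2 together and 1636 and 1037 with the split as a term. They were from 157 to 886 and from 6 to 414 with 1 library left out, where the lone siFAM53C library is assumed to vary like the others. Under scaling by totals alone 121 were higher, and 77.4% of the called genes were lower (77.8% with DESeq2, and 87.7% with TMM factors and the condition alone). That scaling moved the median of all genes by 0.071. Members called lower were 2, against 5 without those 2 libraries together, 8 with the split term (1 higher, against 0) and from 0 to 3 with 1 library left out. The low counts of CXCL1, CXCL2, CXCL3, ICAM1, IL6 and MMP1 limit their values at this depth. The causes of these changes were not tested.

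The replicate numbers pair at most 2 libraries, and no label says that they mark a shared culture or day. The deviations from the group means correlated at 0.17 and -0.28 for pairs by title and at 0.17 and 0.37 for pairs by library name. With 2 siFAM53C libraries, their deviations are mirror images of each other. The signs of these correlations are therefore tied together, and they cannot decide whether the numbers mark pairs. A replicate block by titles gave 856 lower and 355 higher genes and, among the members, 3 lower (PLAUR, PLAT and AREG) and 1 higher (FGF2). A replicate block by library names gave 1350 and 642 genes and 7 lower and 1 higher member. With the block by titles the sign turned for BIRC3 (0.14), ICAM1 (0.72), IL6 (0.33), CXCL8 (0.50), CXCL3 (0.18), IGFBP3 (0.061), IL1B (-0.11) and NFKB1 (-0.00024). With the block by library names it turned for TNFAIP3 (-0.10), CXCL2 (-0.71), IL11 (-0.067), IGFBP5 (-0.0071), MMP1 (-0.14) and MMP14 (0.11). All of these were uncalled with the condition alone.

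The sign of other uncalled members turned as well. With the split term this was so for TNFAIP3 (-0.041), CXCL2 (-0.62), IL11 (-0.040), MMP1 (-0.53), MMP14 (0.099) and NFKB1 (-0.0034). Without siCtrl replicate 3 and siFAM53C replicate 2 together it was so for CXCL2 (-1.43), IGFBP4 (-0.77) and NFKB1 (-0.037). With limma-voom it was so for CXCL2 (-0.39) and MMP1 (-1.17), with library totals for MMP14 (0.035) and with no filter for NFKB1 (-0.00082). Leaving out 1 library in turn gave ranges across 0 for BIRC3 (-1.53 to 0.40), CXCL2 (-2.26 to 0.97), CXCL3 (-2.51 to 0.59), CXCL8 (-3.27 to 1.21), FGF2 (-0.0049 to 0.82), ICAM1 (-1.63 to 0.96), IGFBP3 (-1.48 to 0.39), IGFBP4 (-0.85 to 1.41), IGFBP5 (-0.71 to 1.20), IL11 (-1.55 to 1.89), IL1B (-0.094 to 0.30), IL6 (-1.57 to 0.60), LIF (-0.38 to 0.062), MMP1 (-6.12 to 1.60), MMP14 (-0.33 to 0.19), NFKB1 (-0.035 to 0.029), NFKBIA (-0.033 to 0.48), RELB (-0.17 to 0.86) and TNFAIP3 (-0.82 to 1.14).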
